A study of Homo sapiens with 12 samples.

Results

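The miRNAs of extracellular vesicles (EVs) released by miR-122 knockout cells were set directly against those of EVs released by RAB27A knockdown cells, both lines derived from MDA-MB-231, a human triple-negative breast cancer line. The comparison holds 4 of the 12 libraries of the series, 2 of knockout EVs and 2 of knockdown EVs, chosen by their labels alone, and all 2588 mature miRNA entries of the count table entered it. The knockout line was edited at the miR-122 gene with CRISPR-Cas9 and 2 single guide RNAs, and the labels report a check by Sanger sequencing. The knockdown line carried a lentiviral short hairpin RNA against RAB27A, clone NM_004580.3-735s1c1, and the empty vector SHC001 was carried by the control line, whose EVs were left out of the contrast. Every line was grown with 10% fetal bovine serum, and EVs were pelleted by ultracentrifugation from medium conditioned for 24 h without serum and with 1% bovine serum albumin, after spins that pre-cleared it. The knockdown rests on 1 hairpin, the labels do not say whether the knockout line is a clone, and the 2 lines also differ in vector, so edit, hairpin and line history cannot be told apart in this contrast. Replicates are numbered in the labels with no word on separate cultures, and p-values therefore cover the spread among these libraries alone, part of which may be technical.

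Knockout EV libraries held 3754673 and 3166760 counts, and knockdown EV libraries 164656 and 170366. A single count was therefore worth 0.266 and 0.316 CPM, the unit of counts scaled to a common library total, in knockout EVs, against 6.07 and 5.87 CPM in knockdown EVs. Replicates, taken over miRNAs that reached 20 counts in their group, correlated across miRNAs at 0.998 in knockout EVs (410 miRNAs) and 0.990 in knockdown EVs (195 miRNAs) in log2(CPM + 10). They differed by more than counting noise (chi-square per degree of freedom 30.3 in knockout EVs and 8.75 in knockdown EVs), so none was counted as a repeat of another. CPM is a share of the sequenced miRNAs, and neither the number of EVs nor the RNA per EV was measured, so fewer EVs and less RNA per EV cannot be told apart.

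A mature miRNA guides an Argonaute protein to messenger RNAs that pair with its seed, the bases near its 5′ end, and represses them. RAB27A, a member of the RAB GTPase family, helps multivesicular bodies reach and dock at the cell surface, from where exosomes are released. miR-122 is made mainly by hepatocytes, where it acts in lipid metabolism, and has been studied as a miRNA that breast cancer cells secrete. Abundant miRNAs of MDA-MB-231 were found in both EV groups: miR-21-5p, miR-100-5p, miR-221-3p and miR-146a-5p were among the 10 most abundant miRNAs by mean level over the 4 libraries. The epithelial miR-200 family, which this mesenchymal-like line lacks for the most part, summed to 334 and 329 CPM in knockout EVs, against 425 and 423 CPM in knockdown EVs.

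Mature sequences from RefSeq (GRCh38.p14) are shown for the edited miRNA and for relatives that share a seed and did not move alike. Of the 369 tested miRNAs, 321 had a sequence there. Capitals mark the seed, bases 2 to 8 from the 5′ end.
miR-122-5p: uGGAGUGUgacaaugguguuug
miR-100-5p: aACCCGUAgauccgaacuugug
miR-99b-5p: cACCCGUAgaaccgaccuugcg
miR-99a-5p: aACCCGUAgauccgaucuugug
let-7a-5p: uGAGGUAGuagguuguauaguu
let-7c-5p: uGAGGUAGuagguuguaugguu
miR-27b-3p: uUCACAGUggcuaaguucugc
miR-27a-3p: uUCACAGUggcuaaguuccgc
miR-23b-3p: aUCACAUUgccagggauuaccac
miR-23a-3p: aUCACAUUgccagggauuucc
miR-92a-3p: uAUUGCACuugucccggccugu
miR-363-3p: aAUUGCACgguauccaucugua
miR-93-5p: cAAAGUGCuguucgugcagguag
miR-17-5p: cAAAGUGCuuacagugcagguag
miR-106a-5p: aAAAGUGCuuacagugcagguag
Counted from 1 at the 5′ end, miR-99a-5p differs from miR-100-5p by A16U, let-7c-5p from let-7a-5p by A19G, and miR-27b-3p from miR-27a-3p by C19U. miR-23b-3p differs from miR-23a-3p by U19A and by its longer end, and miR-106a-5p differs from miR-17-5p by C1A. How reads with several matching miRNAs were handled is not given in the sources used here, so reads may have been shared between such relatives.

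The edited miRNA was near the limit of detection in both EV groups. miR-122-5p, on the plus strand of chromosome 18 at chr18:58451088-58451109 (GRCh38.p14), had 4 and 3 counts in knockout EVs, 1.07 and 0.947 CPM, against 7 and 5 counts in knockdown EVs, 42.5 and 29.3 CPM. The 95% exact Poisson intervals were 0.29 to 2.73 and 0.195 to 2.77 CPM in knockout EVs, against 17.1 to 87.6 and 9.53 to 68.5 CPM in knockdown EVs. The groups did not overlap, and miR-122-5p was lower in knockout EVs by edgeR's quasi-likelihood test (log2 fold change −4.64, SE 0.58, adjusted p = 0.000228). It passed the filter on low counts only through knockdown EVs, so that test could call it in no other direction. Control EVs, outside the contrast, held 790 and 651 counts, 331 and 251 CPM. Knockout cells had no count of it, which allows up to 0.15 CPM over the group, against 12.5 ± 0.278 CPM in knockdown cells (SD, n = 2). The other arm, miR-122-3p, and both arms of the antisense miR-3591 had no count in any of the 4 EV libraries, which allows up to 0.433 CPM in knockout EVs and 8.95 CPM in knockdown EVs over each group. At most 3 counts are allowed where none was seen, and intervals and limits cover counting error only.

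Many of the miRNAs that could be tested differed between the EVs of the 2 lines. Of 1191 entries with a count in these 4 libraries, 369 passed the filter on low counts and 193 of them (52.3%) passed the threshold, an adjusted p under 0.05 by edgeR's quasi-likelihood test. In knockout EVs, 105 were higher (28.5% of those tested) and 88 were lower (23.8%). At least 4-fold changes were met by 86 (23.3%), 45 higher (12.2%) and 41 lower (11.1%). The libraries of the groups did not overlap in CPM for 280 of the 369 (75.9%).

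The balance of higher and lower calls depended on the scaling, and the number of calls on depth. Higher calls were 54.4% of all calls with trimmed-mean (TMM) factors, against 37.7% with scaling by total counts (77 higher, 127 lower), 42.1% with a correction for GC content (85 higher, 117 lower) and 62.3% with no filter on low counts (134 higher, 81 lower). The median log2 fold change of all tested miRNAs was 0.19 with TMM factors and −0.22 with total counts, a shift of 0.42, so fold changes below are relative to that scaling and lie above the ratio of CPM. DESeq2 called 162 of the 369, and edgeR called 143 of 441 without knockdown EV replicate 1 and 161 of 442 without replicate 2. Without either knockout EV library in turn, 121 miRNAs were called, of 220 tested without replicate 1 and of 222 tested without replicate 2, because the filter then kept fewer. With knockout EVs thinned to the depth of the shallowest library, 121 of 192 tested were called. In all, 137 tested miRNAs had fewer than 10 counts over both knockdown EV libraries, among them 48 of the 193 called and 43 of the 105 called higher.

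**Figure D1:**
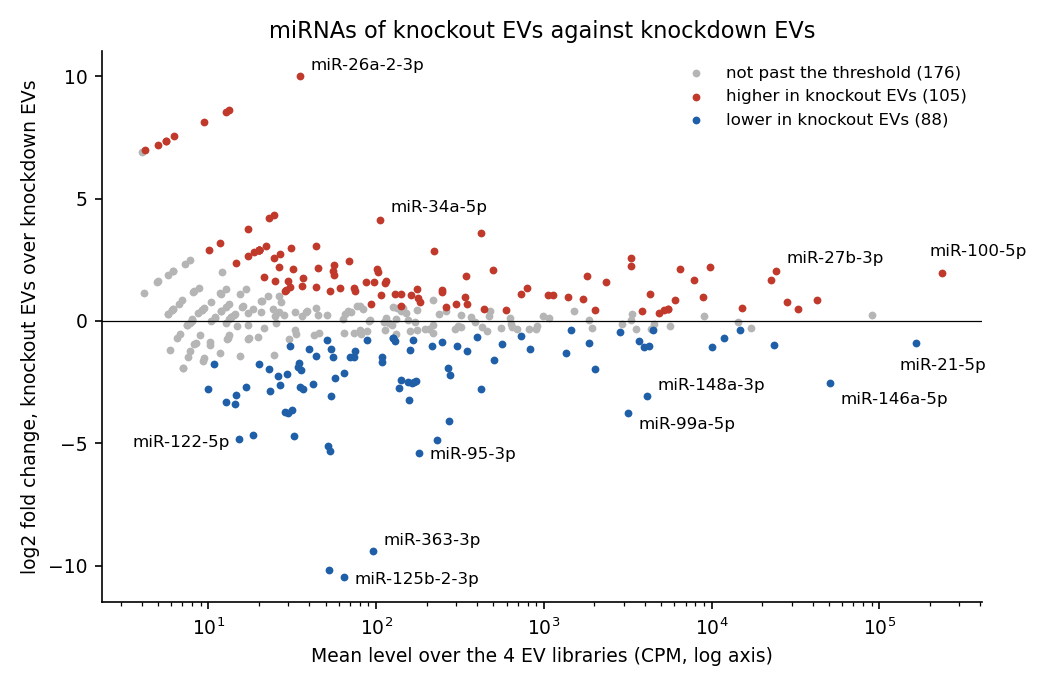
Mean level over the 4 EV libraries (CPM, log axis) against the log2 fold change of knockout EVs over knockdown EVs for the 369 tested miRNAs, with the 105 higher in red, the 88 lower in blue and the others in grey. The most abundant miRNAs moved in both directions, and the points near 10 and −10 on the vertical axis are miRNAs with no count in 1 group or nearly so, whose fitted change depends on the prior count.

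The most abundant miRNAs exchanged their order between the EVs of the 2 lines. miR-100-5p, which represses mTOR, had 349152 and 359963 CPM in knockout EVs, against 110515 and 130120.0 CPM in knockdown EVs (log2 fold change 1.98, SE 0.12, adjusted p = 3.52e-06, edgeR's quasi-likelihood test, as for every adjusted p below). It was the leading miRNA of knockout EVs, with 34.9% and 36.0% of all counts. miR-21-5p, an oncogenic miRNA that represses PDCD4, had 90859 and 99973 CPM in knockout EVs, against 238588 and 229471 CPM in knockdown EVs (log2 fold change −0.88, SE 0.12, adjusted p = 0.000315). It was the leading miRNA of knockdown EVs, with 23.9% and 22.9% of all counts. miR-146a-5p, an NF-κB target that represses TRAF6 and IRAK1, had 11678 and 11458 CPM in knockout EVs, against 98478 and 82064 CPM in knockdown EVs (log2 fold change −2.55, SE 0.14, adjusted p = 2.73e-06). For these 3 miRNAs the libraries of a group lay close together and the groups did not overlap.

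Among the other abundant miRNAs, let-7 and miR-27b-3p were higher and miR-30a-5p was lower. let-7a-5p, of the family that represses RAS genes and HMGA2, had 34882 and 28493 CPM in knockout EVs, against 11381 and 15426 CPM in knockdown EVs (log2 fold change 1.66, SE 0.16, adjusted p = 4.33e-05). let-7i-5p had 49119 and 48733 CPM in knockout EVs, against 35316 and 37091 CPM in knockdown EVs (log2 fold change 0.85, SE 0.11, adjusted p = 0.000255). For let-7f-5p the values were 31998 and 31311 CPM in knockout EVs, against 22125 and 26942 CPM in knockdown EVs (log2 fold change 0.79, SE 0.12, adjusted p = 0.00077). The groups did not overlap for any of the 3, and only the change of let-7a-5p exceeded 2-fold. miR-27b-3p had 34498 and 38088 CPM in knockout EVs, against 11691 and 12033 CPM in knockdown EVs (log2 fold change 2.03, SE 0.12, adjusted p = 3.52e-06). miR-30a-5p had 12478 and 13270.3 CPM in knockout EVs, against 35249 and 32824 CPM in knockdown EVs (log2 fold change −0.99, SE 0.12, adjusted p = 0.000206). Both miRNAs were separated between the groups in all 4 libraries.

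miR-221-3p and miR-26a-5p were closer to the scaling. miR-221-3p, which represses the cell cycle inhibitor CDKN1B, had 90256 and 81558 CPM in knockout EVs, against 96116 and 94456 CPM in knockdown EVs, and missed the threshold (log2 fold change 0.27, SE 0.11, adjusted p = 0.0787). miR-26a-5p, which represses EZH2, had 33527 and 33827 CPM in knockout EVs, against 36318 and 27124 CPM in knockdown EVs. Its libraries overlapped, and although it passed the threshold (log2 fold change 0.50, SE 0.16, adjusted p = 0.0289) the call was lost with total counts (log2 fold change 0.086, adjusted p = 0.696), without knockdown EV replicate 2 and without either knockout EV library (adjusted p 0.107 to 0.150).

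**Figure D2:**
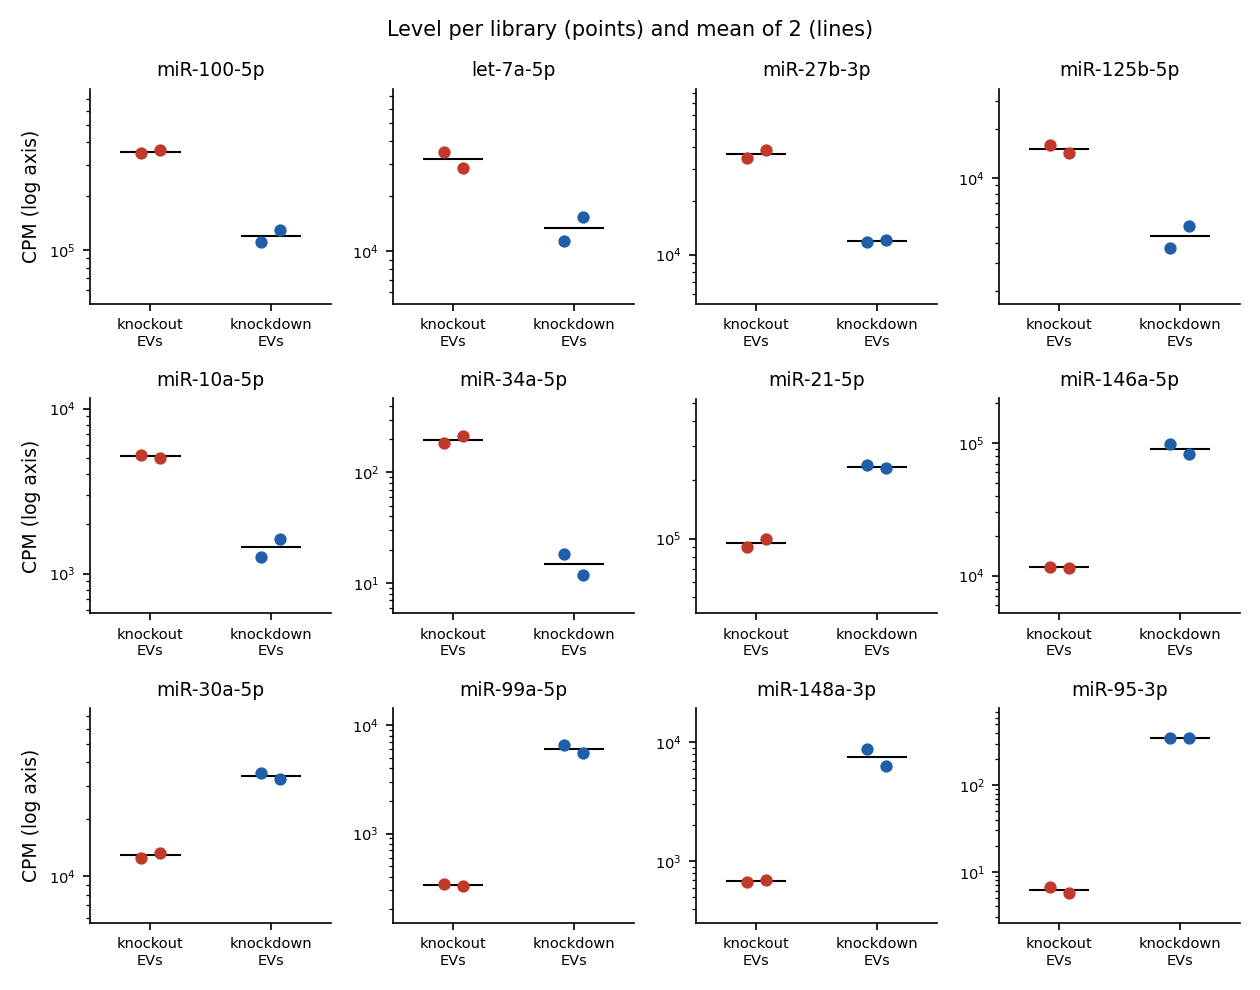
Level of 12 miRNAs (CPM, log axes that differ between panels) in each knockout EV library (red) and knockdown EV library (blue), with a line at the mean of 2. The first 6 panels show miRNAs that were higher and the last 6 miRNAs that were lower in knockout EVs, and no panel has overlapping groups.

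The largest increases among miRNAs at or above the median level were led by miR-34a-5p, which p53 induces and which represses cell cycle genes. It had 687 and 670 counts in knockout EVs, 183 and 212 CPM, against 3 and 2 counts in knockdown EVs, 18.2 and 11.7 CPM (log2 fold change 4.13, SE 0.36, adjusted p = 2.19e-05). miR-27b-5p had 810.5 and 714 CPM in knockout EVs, against 54.7 and 112 CPM in knockdown EVs (log2 fold change 3.61, SE 0.25, adjusted p = 7.89e-06). Both were separated between the groups by more than the spread of replicates, though the knockdown values rest on few counts. miR-222-5p had 399.8 and 345 CPM in knockout EVs, against 42.5 and 93.9 CPM in knockdown EVs (log2 fold change 2.86, SE 0.27, adjusted p = 4.2e-05). The others with large increases that did not rest on few counts were miR-125a-5p (2.57 on the log2 scale) and miR-125b-5p (2.22), homologues of the worm miRNA lin-4, miR-10a-5p (2.25), encoded among HOX genes, miR-23b-3p (2.13) and miR-484 (2.08). miR-125b-5p had 16088 and 14204 CPM in knockout EVs, against 3686 and 5030.4 CPM in knockdown EVs (adjusted p = 8.09e-06). miR-10a-5p had 5240.4 and 5034 CPM in knockout EVs, against 1263 and 1626 CPM in knockdown EVs (adjusted p = 4.91e-06). The list ended with miR-15b-3p (2.46), with 3 and 6 counts in the knockdown EV libraries, and miR-16-2-3p (2.11), with 5 and 11.

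The largest decreases could be followed further than the increases, since 3 counts come to 0.433 CPM over knockout EVs and to 8.95 CPM over knockdown EVs. miR-125b-2-3p had no count in knockout EVs, against 26 and 17 counts in knockdown EVs, 158 and 99.8 CPM, and was at least 296-fold lower over the group (adjusted p = 1.82e-05). miR-363-3p had 1 and 0 counts in knockout EVs, against 30 and 34 counts in knockdown EVs. The CPM over both libraries was higher in knockdown EVs 1322-fold with a 95% exact interval of 229 to 53030.5 (adjusted p = 2.73e-06). miR-95-3p had 6.66 and 5.68 CPM in knockout EVs, against 352 and 352 CPM in knockdown EVs (log2 fold change −5.40, SE 0.20, adjusted p = 5.47e-07), with no overlap. miR-125b-2-3p, miR-363-3p and miR-95-3p passed the filter on low counts only through knockdown EVs, so their direction was all but fixed by the filter. miR-99a-5p, a seed relative of miR-100-5p, had 345 and 331 CPM in knockout EVs, against 6529 and 5564 CPM in knockdown EVs (log2 fold change −3.75, SE 0.15, adjusted p = 5.89e-07). Likewise miR-148a-3p, which represses DNMT1, had 668 and 690.0 CPM in knockout EVs, against 8831 and 6345 CPM in knockdown EVs (log2 fold change −3.07, SE 0.19, adjusted p = 3.52e-06). Both of the more abundant miRNAs were low in both knockout EV libraries and high in both knockdown EV libraries. The other large decreases were those of miR-7704 (−4.85), miR-6087 (−4.08) and miR-1246 (−2.77), entries that overlap other abundant RNAs, and of miR-501-3p (−3.24) and miR-660-5p (−2.75).

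Some miRNAs were seen in the EVs of 1 line only, and depth set what could be said of them. miR-26a-2-3p had 288 and 201 counts in knockout EVs and none in knockdown EVs, and was at least 7.89-fold higher. miR-26b-3p had 101 and 82 counts in knockout EVs and none in knockdown EVs, and was at least 2.95-fold higher. The next 3 by level, miR-3681-5p, miR-26a-1-3p and miR-98-3p, gave bounds of 2.79, 2.08 and 1.42 fold. Bounds stayed small in this direction because 3 counts over both knockdown EV libraries come to 8.95 CPM. In the other direction, miR-6126 had no count in knockout EVs, against 14 and 21 counts in knockdown EVs, and was at least 241-fold lower. miR-105-5p and miR-767-5p, which share a host gene, had no count in knockout EVs. miR-105-5p had 6 and 2 counts in knockdown EVs and was at least 55.1-fold lower if these counts are taken as exact. On the same terms miR-767-5p, with 3 and 3 counts, was at least 41.3-fold lower. Both were too low for the filter and were not tested. miR-708-5p had no count in knockout EVs, against 5 and 2 counts in knockdown EVs, at least 48.2-fold lower on those terms and not tested either. With so few counts in knockdown EVs, their counting error would lower these 3 bounds.

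Clusters of miRNAs made from 1 precursor transcript moved as groups in several cases. The let-7c cluster on chromosome 21, with miR-99a and miR-125b-2, summed to 386 and 362 CPM in knockout EVs, against 6966 and 5952 CPM in knockdown EVs. Its 3 tested members of 5 were lower in knockout EVs, against 23.8% lower among all tested miRNAs, with a median log2 fold change of −3.75 against 0.19 over all. miR-125b-2-3p among them passed the filter on low counts only through knockdown EVs and could be called in no other direction. let-7c-5p had 41 and 31.3 CPM in knockout EVs, against 273 and 276 CPM in knockdown EVs (log2 fold change −2.50, SE 0.21, adjusted p = 1.99e-05). The paralogous cluster of miR-100 and let-7a-2 on chromosome 11 went the other way, with 4 of 4 tested arms higher, among them let-7a-5p, which other loci make as well.

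The X-linked cluster of miR-532, miR-500 and miR-660 was lower throughout. It summed to 278 and 263 CPM in knockout EVs, against 2229 and 2043 CPM in knockdown EVs, and 11 of 11 tested members, of 16 in the table, were lower (median −2.75), 9 of 11 without knockdown EV replicate 1. Not every call is support for that, since low members such as miR-500b-5p and miR-362-3p passed the filter only through knockdown EVs and could be called in no other direction. Among all tested miRNAs 23.8% were lower. miR-362-5p had 89.2 and 63.8 CPM in knockout EVs, against 516 and 440.2 CPM in knockdown EVs (log2 fold change −2.22, SE 0.21, adjusted p = 3.95e-05). miR-500a-3p had 33 and 42.9 CPM in knockout EVs, against 309.7 and 270.0 CPM in knockdown EVs (log2 fold change −2.52, SE 0.22, adjusted p = 2.27e-05). In both, each knockout EV library lay far below each knockdown EV library.

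The 3 paralogous clusters of the miR-17 group differed from each other. Their counts stand beside 28.5% higher and 23.8% lower among all tested miRNAs. The miR-106a-363 cluster on chromosome X summed to 8.52 and 11.4 CPM in knockout EVs, against 383 and 340.4 CPM in knockdown EVs, and 3 of 3 tested members of 10 were lower (median −5.33). All 3 passed the filter on low counts only through knockdown EVs, where they are high, so their direction was all but fixed by the filter. miR-20b-5p had 6 and 7 counts in knockout EVs, against 17 and 18 counts in knockdown EVs (log2 fold change −5.33, SE 0.43, adjusted p = 1.82e-05). miR-106a-5p had 22 and 27 counts in knockout EVs, against 15 and 6 counts in knockdown EVs (log2 fold change −2.71, SE 0.55, adjusted p = 0.00304), a call lost without knockdown EV replicate 1 and without either knockout EV library (adjusted p 0.0683 to 0.0886). The miR-17-92 cluster on chromosome 13 had 5 lower and 2 higher of 10 tested (median −0.70). miR-20a-5p had 2079.5 and 2135 CPM in knockout EVs, against 5994 and 5623 CPM in knockdown EVs (log2 fold change −1.05, SE 0.12, adjusted p = 0.000174). For miR-19b-3p the values were 586 and 669 CPM in knockout EVs, against 1956 and 2189 CPM in knockdown EVs (log2 fold change −1.31, SE 0.14, adjusted p = 7.74e-05). miR-17-5p was lower as well (log2 fold change −0.91, SE 0.13, adjusted p = 0.000378), with groups that did not overlap. miR-92a-3p had 3941 and 3769.8 CPM in knockout EVs, against 3893 and 3792 CPM in knockdown EVs, with overlap, and its call (log2 fold change 0.42, SE 0.12, adjusted p = 0.0175) was lost with total counts and without knockdown EV replicate 2. The miR-106b-25 cluster on chromosome 7 had 4 higher and none lower of 6 tested (median 0.39), 2 higher with total counts and 2 higher without either knockdown EV library or knockout EV replicate 2. miR-93-5p, its most abundant member, had 4589 and 4752 CPM in knockout EVs, against 4822 and 5142 CPM in knockdown EVs, and its call (log2 fold change 0.32, SE 0.12, adjusted p = 0.0478) turned to a log2 fold change of −0.093 with total counts.

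The clusters of miR-23, miR-24 and miR-27 differed by locus. Their counts, too, stand beside 28.5% higher and 23.8% lower among all tested miRNAs. Of 11 tested arms, 6 were higher and 2 lower, and the cluster on chromosome 9 with miR-23b, miR-27b and miR-24-1 held 5 higher of its 6 tested arms. miR-23b-3p had 9786 and 10145 CPM in knockout EVs, against 3286 and 2776 CPM in knockdown EVs (log2 fold change 2.13, SE 0.14, adjusted p = 6.64e-06). miR-23a-3p, from the paralogous cluster on chromosome 19, had 7381 and 7862 CPM in knockout EVs, against 17169 and 15255 CPM in knockdown EVs (log2 fold change −0.68, SE 0.13, adjusted p = 0.00227). miR-27a-3p of the same cluster had 10351 and 11406 CPM in knockout EVs, against 18389.9 and 19065 CPM in knockdown EVs (log2 fold change −0.37, SE 0.12, adjusted p = 0.0284). Groups did not overlap for any of the 3, and the calls of miR-23a-3p and miR-27a-3p were lost without either knockout EV library and with no filter on low counts (log2 fold change −0.33 for miR-23a-3p and −0.026 for miR-27a-3p), where none of the arms was called lower, and that of miR-27a-3p also without knockdown EV replicate 2.

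The 39 seeds shared by 2 or more tested miRNAs give the same view across families. In 33 of them at least 1 miRNA was called, in 17 at least 2 were called and all in 1 direction, and in 6 calls went both ways. The 6 were the seeds of miR-100 (2 higher, 1 lower of 3), let-7 (7 higher, 1 lower of 9), miR-27 (1 and 1 of 2), miR-23 (1 and 1 of 3), miR-92 (2 higher, 1 lower of 5) and miR-17 (1 higher, 4 lower of 6). Summed over its members, the miR-100 seed had 360252 and 370749 CPM in knockout EVs, against 124271 and 142863 CPM in knockdown EVs. The miR-17 seed summed to 8003 and 8358 CPM in knockout EVs, against 14133 and 14023 CPM in knockdown EVs. For the miR-92 seed the sums overlapped, 6051 and 5997 CPM in knockout EVs against 5940 and 6093 CPM in knockdown EVs, although miR-363-3p within it was nearly lost from knockout EVs. In the miR-92 and miR-17 seeds, the direction of miR-363-3p, miR-20b-5p and miR-106a-5p was all but fixed by the filter. Among the 17, the seeds of miR-518e-5p (6 higher), miR-199a-3p (2 higher) and miR-365a-3p (2 lower) held only entries with identical counts. Each of these is 1 profile, not several that agree. The members of the miR-518e-5p, miR-199a-3p and miR-26a-2-3p seeds passed the filter only through knockout EVs and could be called in no other direction.

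**Figure D3:**
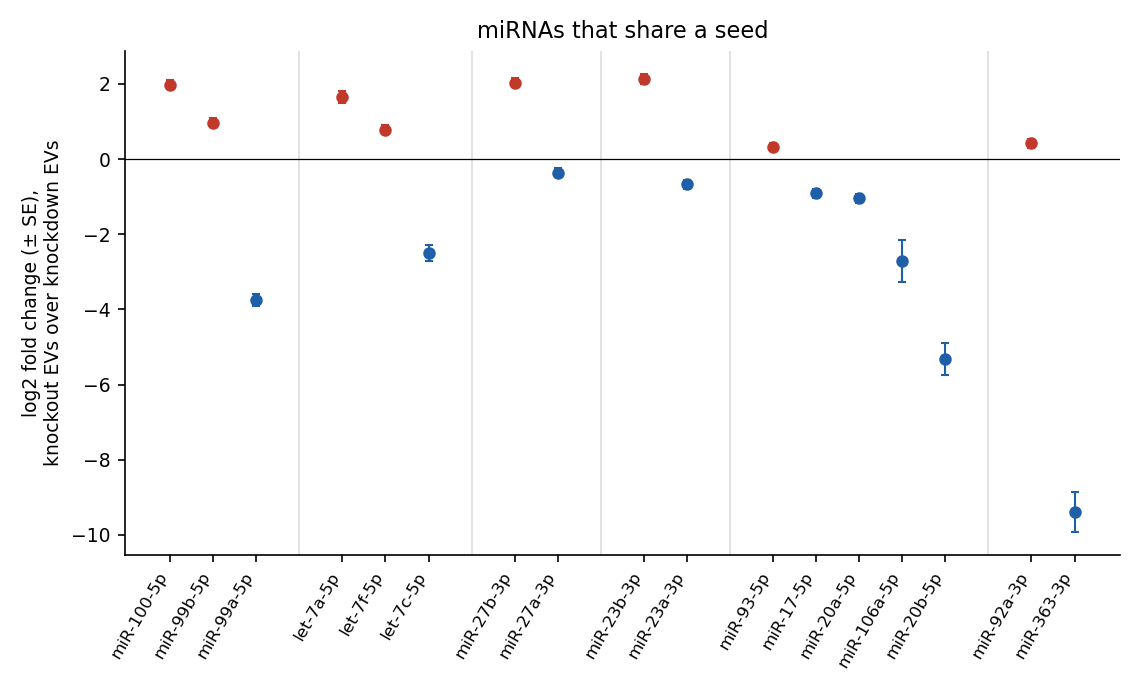
Log2 fold change of knockout EVs over knockdown EVs with its SE for miRNAs that share a seed, in 6 groups divided by vertical lines (red, higher; blue, lower). Each group has a member above 0 and a member below 0, but miR-93-5p falls below 0 with scaling by total counts.

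Families are summarised by counts, beside 28.5% higher and 23.8% lower among all tested miRNAs. Of 18 tested let-7 arms, 11 were higher and 2 lower (median 0.82), the lower ones being let-7c-5p and let-7f-2-3p. With total counts 8 were higher, and without knockdown EV replicate 1 there were 7. The 11 include miR-98-3p, whose counts in this contrast were all from knockout EVs. The filter thus left miR-98-3p no other direction, and its call is not support for a rise of the family. In turn, let-7f-2-3p passed the filter only through knockdown EVs, so its lower call was all but fixed as well. In the miR-99 and miR-100 family, 3 of 5 were higher and 1 lower. The miR-125 family had 3 higher and 1 lower of 5. In the miR-26 family, miR-26a-5p and miR-26b-5p were called higher, the first not with total counts; the other 3 tested arms had no count in knockdown EVs and passed the filter only through knockout EVs, so they could be called in no other direction. miR-26b-5p had 11379.7 and 10816 CPM in knockout EVs, against 3990.1 and 5318 CPM in knockdown EVs (log2 fold change 1.67, SE 0.15, adjusted p = 2.19e-05), with no overlap. The miR-29 family, which represses collagen genes, had 3 higher of 7 and none without knockdown EV replicate 1.

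Families with lower members included miR-181, miR-30 and miR-148. Of 8 tested miR-181 arms, 4 were lower and none higher (median −0.22). miR-181a-5p had 5049 and 5576 CPM in knockout EVs, against 15031 and 14622 CPM in knockdown EVs (log2 fold change −1.07, SE 0.12, adjusted p = 0.000157), with no overlap. The miR-30 family had 3 lower of 10 (median −0.01), 5 with total counts, and without a filter on low counts 4 of 11 were higher and 2 lower. The miR-148 and miR-152 family had 2 lower of 5, both arms of miR-148a. miR-148b-3p, with the same seed, had 2230.0 and 2543 CPM in knockout EVs, against 3917 and 3029 CPM in knockdown EVs, and missed the threshold (log2 fold change −0.13, SE 0.16, adjusted p = 0.548). The miR-130, miR-301 and miR-454 family had 3 lower and 1 higher of 7. The miR-15/16 family had 3 higher, all passenger arms, and 1 lower, miR-15b-5p (393 and 432 CPM in knockout EVs, against 1245 and 1221 CPM in knockdown EVs, log2 fold change −1.16, SE 0.14, adjusted p = 0.000177), of 9, but 5 lower with total counts. Both arms of miR-135b were lower (−2.47 for miR-135b-5p), but miR-135b-3p passed the filter only through knockdown EVs, so its direction was all but fixed.

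Smaller lists held few calls. Of miR-146 and miR-155 entries, 1 of 3 was lower, miR-146a-5p, while miR-146b-5p had 251 and 269 CPM in knockout EVs, against 273 and 252 CPM in knockdown EVs, with overlap. Of the 4 arms of miR-221 and miR-222, 1 was higher, miR-222-5p. None of the 4 tested miR-200 members was called, and 1 was lower with total counts. The miR-183/96/182 cluster had 2 higher of 4, led by miR-182-5p (3213 and 3263 CPM in knockout EVs, against 1354 and 1520.3 CPM in knockdown EVs, log2 fold change 1.59, SE 0.13, adjusted p = 1.82e-05). The other, miR-183-5p, lost its call without either knockout EV library (adjusted p 0.0664 and 0.0782). Both arms of miR-335, a suppressor of metastasis in breast cancer models, were higher, and miR-335-5p had 334 and 307 CPM in knockout EVs, against 139.7 and 211 CPM in knockdown EVs (log2 fold change 1.28, SE 0.20, adjusted p = 0.00077). miR-210-3p, which hypoxia induces, had 137 and 172 CPM in knockout EVs, against 79 and 23.5 CPM in knockdown EVs (log2 fold change 2.02, SE 0.39, adjusted p = 0.00239), a call lost without knockout EV replicate 2 (adjusted p = 0.0648). The miR-34 and miR-449 family had 1 higher of 5, miR-34a-5p, the miR-10 and miR-196 list 2 higher of 3, the arms of miR-21 1 lower of 2, miR-224 and miR-452 1 higher of 3, the miR-33 arms 1 higher of 2 and none with total counts, and the miR-320 family with miR-484 1 higher and 1 lower of 5. The miR-193 and miR-365 family had 1 higher and 3 lower of 5, the identical miR-365a-3p and miR-365b-3p counting as 2 of the 3, and without either knockdown EV library or knockout EV replicate 2 it had 1 lower and none higher.

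**Figure D4:**
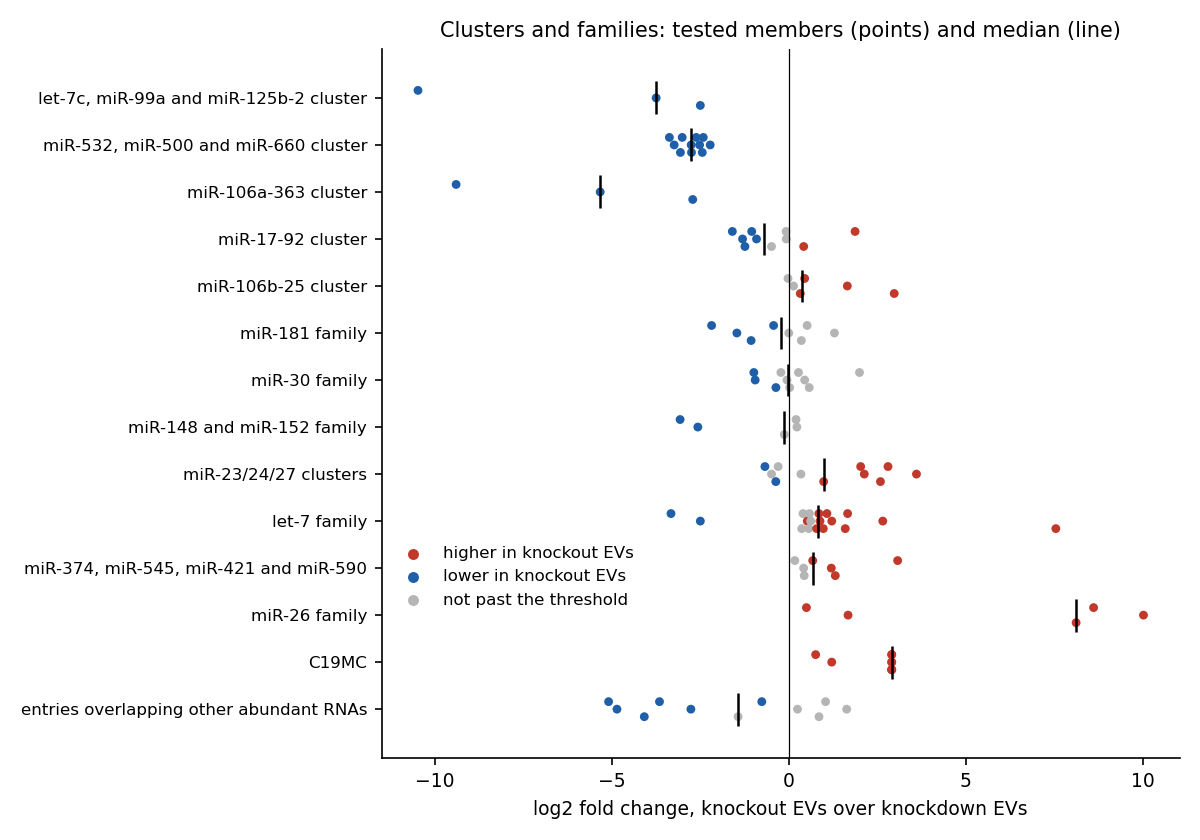
Log2 fold change of knockout EVs over knockdown EVs for the tested members (points) of 14 clusters, families and lists, with the median of each as a line and colours for members called higher (red), lower (blue) or not called (grey). The 3 lists at the top lie below 0 throughout and the 4 lists from let-7 to C19MC lie mostly or fully above it. Points beyond 7 or −9 have no count in 1 group or nearly so. Those beyond 7 passed the filter only through knockout EVs, and those beyond −9 and all of the miR-106a-363 list only through knockdown EVs.

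The primate-specific C19MC cluster on chromosome 19, expressed mainly in placenta, summed to somewhat more in knockout EVs. It summed to 347 and 327 CPM in knockout EVs, against 267 and 164 CPM in knockdown EVs. Of 62 entries, 29 had a count and 9 were tested, 6 of them identical in all libraries, so that 4 distinct profiles remain. The 9 were called higher (6 with total counts), but the 6 identical entries passed the filter only through knockout EVs, where they are high, so their direction was fixed by the filter. miR-516a-5p, the most abundant of them, had 203 and 206 CPM in knockout EVs, against 206 and 117 CPM in knockdown EVs, with overlap, and its call (log2 fold change 0.76, SE 0.24, adjusted p = 0.0254) was lost with total counts, without knockdown EV replicate 2 and without either knockout EV library. miR-518e-5p and its identical entries had 126 and 109 counts in knockout EVs, against 1 and 1 counts in knockdown EVs. Their CPM over both libraries was higher in knockout EVs 5.69-fold with a 95% exact interval of 1.56 to 47.2. Without knockout EV replicate 1 none of the 9 was called, since only 1 was then tested, and without replicate 2 there was 1 of 2.

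Markers of other possible sources of EV RNA were low in both groups. The blood list, with 9 of 11 entries detected, summed to 226 and 158 CPM in knockout EVs, against 170.1 and 264 CPM in knockdown EVs, and none of its 6 tested members was called. miR-451a had 37 and 7.89 CPM in knockout EVs, against 30.4 and 58.7 CPM in knockdown EVs. The stroma list summed to 43.9 and 28.7 CPM in knockout EVs, against 115 and 112 CPM in knockdown EVs, with miR-143-3p lower (94 and 39 counts in knockout EVs, against 18 and 19 in knockdown EVs, log2 fold change −2.12, SE 0.41, adjusted p = 0.0023). Its other 2 tested entries, the identical miR-199a-3p and miR-199b-3p, had 40 and 37 counts in knockout EVs and none in knockdown EVs, at least 1.24-fold higher. The endothelial pair had 1 lower of 2, miR-126-3p (log2 fold change −0.83, SE 0.19, adjusted p = 0.00621), a call lost without knockdown EV replicate 1 (adjusted p = 0.053) and with no filter on low counts. The imprinted 14q32 cluster summed to 18.4 and 8.53 CPM in knockout EVs, against 36.4 and 41.1 CPM in knockdown EVs, with none of its 92 entries passing the filter. In control EVs the same lists were higher: blood summed to 11528 and 9895 CPM, stroma to 3378 and 3497, the endothelial pair to 2966 and 2648, and 14q32 to 1970.4 and 1861. The liver list, miR-122-5p aside, had miR-194-5p lower (164 and 164 CPM in knockout EVs, against 516 and 369.8 CPM in knockdown EVs, log2 fold change −1.02, SE 0.18, adjusted p = 0.00168), a call lost without either knockout EV library.

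Entries that overlap other abundant RNAs, such as ribosomal, transfer or small nuclear RNA, were lower as far as they were called. They summed to 753 and 834 CPM in knockout EVs, against 2441 and 2841 CPM in knockdown EVs. Of 11 tested, 6 were lower and none higher (median −1.43), beside 23.8% lower and 28.5% higher among all tested miRNAs. Of the 6, miR-4508 and miR-4497 were low in knockout EVs and passed the filter on low counts only through knockdown EVs. Their direction was thus all but fixed by the filter. miR-7704 had 10.4 and 12.9 CPM in knockout EVs, against 377 and 522 CPM in knockdown EVs (log2 fold change −4.85, SE 0.22, adjusted p = 1.07e-06). miR-6087 had 17.3 and 29.1 CPM in knockout EVs, against 479.8 and 558 CPM in knockdown EVs (log2 fold change −4.08, SE 0.25, adjusted p = 3.52e-06). For miR-1246 the values were 82.6 and 84.3 CPM in knockout EVs, against 741 and 775 CPM in knockdown EVs (log2 fold change −2.77, SE 0.14, adjusted p = 1.62e-06). The 3 were several times higher in each knockdown EV library than in each knockout EV library, and the part of such fragments in the other differences was not tested.

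The difference between the EVs resembled the difference between the cells that made them only in part. In cells, 526 miRNAs were tested and 367 were called (69.8%), 173 higher in knockout cells (32.9%) and 194 lower (36.9%). Of the 189 miRNAs called in EVs and tested in cells, 112 were called in cells in the same direction (55 higher, 57 lower), 37 in the opposite direction and 40 were not called. Over the 361 miRNAs tested in both, the EV and cell log2 fold changes correlated at r = 0.524 (Spearman rho = 0.417), a description across miRNAs that share their libraries. The EV difference minus the cell difference, tested as an interaction over 8 libraries, was called for 206 of 501 miRNAs (41.1%), 136 with a higher value in EVs (27.1%) and 70 with a lower one (14%). With total counts 102 were higher and 87 lower, with DESeq2 90 and 82, and the median over all tested was 0.49 with TMM factors and 0.14 with total counts.

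Many of the largest differences had the same direction in cells and EVs, though not always the same size. The log2 fold change of miR-99a-5p was −3.75 in EVs and −3.68 in cells, and the interaction, fitted with scaling factors over all 8 libraries, missed the threshold (difference 0.19, adjusted p = 0.442). miR-34a-5p was higher by 4.13 in EVs and 5.51 in cells, and miR-27b-5p by 3.61 and 4.40, without a call of the interaction in either. All 14 tested members of the miR-532, miR-500 and miR-660 cluster were lower in cells, as were 5 of 5 in the let-7c cluster, 4 of 4 in the miR-106a-363 cluster, and both arms of miR-135b. The interaction was nonetheless called for 3 of 14, 1 of 4, 2 of 4 and 1 of 2 tested members of these lists in the same order, among them miR-135b-5p (−2.47 in EVs and −6.13 in cells, interaction 3.91) and miR-20b-5p (−5.33 and −8.62, interaction 3.45). Among all miRNAs tested in cells, 36.9% were lower. In cells, miR-125b-2-3p, miR-363-3p and miR-20b-5p passed the filter on low counts only through knockdown cells, so their direction there was all but fixed. Other low members of these lists may have passed it in the same way. All 13 tested C19MC entries were higher in cells, against 32.9% among all miRNAs tested there. They include the 6 identical entries of miR-518e-5p and the identical miR-518a-5p and miR-527, so the distinct profiles are fewer than 13. miR-95-3p was lower in both, but less so in EVs (−5.40) than in cells (−8.79), and here the interaction passed (difference of log2 fold changes 3.62, SE 0.45, adjusted p = 2.53e-06), though not at the thinned depth.

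Opposite directions in EVs and cells were found for 37 miRNAs, a choice that all but fixes a call of the interaction, which all 37 had. The count holds the identical miR-365a-3p and miR-365b-3p as 2. With total counts the EV calls of miR-26a-5p, let-7g-5p, miR-92a-3p, miR-374a-3p and miR-98-3p among them were lost. Only the miRNAs picked for naming were followed under that scaling, so other calls among the 37 may be lost as well. In 25 the EV level was higher and the cell level lower in the knockout line, and in 12 the reverse held. Among the 25, miR-98-3p, miR-664a-3p, miR-374b-3p and miR-340-3p had at most 2 counts over both knockdown EV libraries and passed the filter only through knockout EVs. Among the 12, miR-147b passed it only through knockdown EVs. The EV direction of these miRNAs was all but fixed by the filter. miR-222-5p was higher in EVs (2.86) and lower in cells (−2.43), and miR-335-3p likewise (3.08 and −1.74). miR-26b-5p (1.67 and −1.35), let-7f-5p (0.79 and −1.87) and miR-224-5p (1.82 and −0.98) followed the same pattern. miR-193b-3p was lower in EVs (−1.45, a call lost at the thinned depth) and higher in cells (2.47), and so were miR-181a-5p (−1.07 and 0.54) and miR-19b-3p (−1.31 and 0.66). The list of miR-374, miR-545, miR-421 and miR-590 held 7 tested members, of which 4 were higher and none lower in EVs (3 higher with total counts), 7 were lower in cells, and the interaction passed for all 7. The 4 include miR-374b-3p, which passed the filter in EVs only through knockout EVs. The miR-193 and miR-365 family had 8 of 8 higher in cells, and 4 of 7 interactions were lower in EVs.

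**Figure D5:**
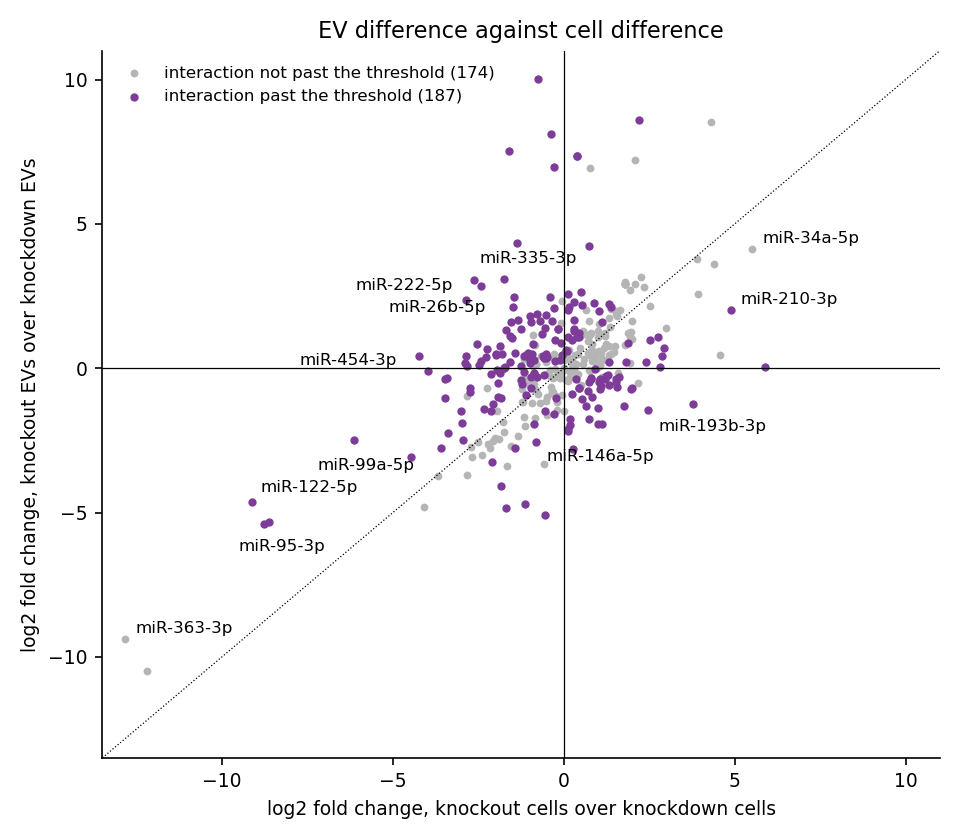
Log2 fold change of knockout over knockdown in cells (horizontal) and in EVs (vertical) for the 361 miRNAs tested in both, with the diagonal dotted and the 187 whose interaction passed the threshold in purple. Losses are seen on both axes, several of the largest lie off the diagonal, and 37 miRNAs called in both lie in the upper left or lower right quadrant.

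What the called miRNAs shared beyond family and locus was limited. Of 96 hairpins with both arms tested, both arms were called in the same direction in 26 and in opposite directions in 4, 1 arm was called in 46 and none in 20. Arms made by several loci, such as miR-26a-5p and let-7a-5p, enter these counts with more than 1 hairpin. The 26 include the hairpins of miR-26a-1, miR-26a-2 and miR-26b, whose 3p arms passed the filter only through knockout EVs and could be called only higher. The 4 hairpins with opposite calls were miR-125b-2, miR-15b, miR-27a and miR-340. Of their arms, the direction of miR-125b-2-3p and miR-340-3p was all but fixed by the filter. For miR-15b the abundant arm miR-15b-5p was lower (−1.16) and the passenger arm miR-15b-3p higher (2.46). The higher arm of miR-125b-2, miR-125b-5p, is also made by a locus on chromosome 11, so its level does not belong to the chromosome 21 locus alone. GC content showed almost no rank correlation with the EV fold change (Spearman rho = −0.00336 over 321 miRNAs), against 0.351 in cells (454 miRNAs). The letters GGAG, described in other cells as a sorting motif, were found in 3.03% of the 99 higher miRNAs with a sequence, 12% of the 75 lower ones and 7.48% of all 321. The letters CCCU were found in 9.09%, 6.67% and 7.79% of the same groups.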

How the data were processed

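Small RNA of cells and EVs was measured by sequencing in 12 libraries, 2 per group, of which the 4 of knockout and knockdown EVs form the comparison and 4 cell libraries a second one. The authors deposited 1 table of raw read counts per mature miRNA. Per the submitters' processing notes cutadapt, Bowtie and the build hg19 were used; no version, annotation or rule for reads with several matches is given there. Every count column was mapped to 1 library, and depths are given with the results.

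Here counts were tested with edgeR 4.0.16 (R 4.3.3, limma 3.58.1): filterByExpr (minimum count 10, minimum total 15), TMM factors and the robust quasi-likelihood test, with Benjamini-Hochberg adjustment over all tested miRNAs and a threshold of 0.05. The scripts were tested on simulated data. The SE is the log2 fold change divided by the square root of F and can be smaller than the counting error at few counts. For fold bounds only, a group without a count was set to 3 counts over both libraries. The counts of the other group were taken as exact, so these bounds do not cover its counting error. Intervals are exact at 95%. Sequences and coordinates are RefSeq's, GRCh38.p14.

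Named miRNAs were the 10 largest changes in each direction at or above the median level, the 10 most abundant, the 5 largest interactions in each direction at or above the median level over 8 libraries, the 5 most abundant with no count in 1 group, and members of lists, of which the ones described were picked after their values were seen. The members and lists were chosen with earlier results of these data known. Alternatives were RLE factors, total counts, no filter, DESeq2 1.42.0, a replicate block, leaving out each library, a higher filter, thinning, a GC correction, all EV libraries and identical entries once.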

Additional observations from a re-analysis of the deposited data

Results flagged for a closer look

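Differences that were not the same in EVs and cells, by the test of the interaction (edgeR's quasi-likelihood test), were found for 206 miRNAs of 501 tested, and 37 were called in opposite directions. Values are the EV log2 difference minus the cell log2 difference of knockout over knockdown, and no cause was tested.

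Among the largest changes in EVs, a positive interaction was found for miR-222-5p (5.54), miR-15b-3p (4.19), miR-16-2-3p (3.87), miR-125a-5p (2.71), miR-484 (2.64), miR-10a-5p (1.62), miR-125b-5p (1.16) and miR-23b-3p (1.00), all higher in knockout EVs. It was also positive for miR-95-3p (3.62), miR-148a-3p (1.68) and miR-660-5p (1.09), whose loss was smaller in EVs than in cells. It was negative for miR-7704 (−2.92), miR-6087 (−2.0), miR-1246 (−1.06) and miR-501-3p (−0.90).

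Of the abundant miRNAs, let-7f-5p (2.91), miR-27b-3p (2.18), miR-26a-5p (1.70), let-7a-5p (1.63), miR-100-5p (1.19) and miR-221-3p (0.78) had positive values, and miR-146a-5p (−1.48) and miR-21-5p (−0.86) negative ones. The value of miR-221-3p lost its call with RLE factors, with DESeq2, with no filter and without any of 4 libraries (both of knockdown cells, knockout cell replicate 2 and knockout EV replicate 1). The edited miR-122-5p had a value of 4.08, fitted against no count in knockout cells, and its call was lost without either knockout cell library, without knockout EV replicate 1 and with no filter.

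Among miRNAs at or above the median level over the 8 libraries, the largest interactions not yet given were those of miR-26a-2-3p (11.88, fitted against no count in knockdown EVs and dependent on the prior count), miR-335-3p (5.08) and miR-590-3p (4.92), and in the other direction miR-4508 (−4.32), miR-193b-3p (−3.66), miR-210-3p (−2.59) and miR-629-5p (−2.53). The interactions of miR-95-3p, miR-6087, miR-4508 and miR-660-5p lost their call at the thinned depth, that of miR-210-3p without knockdown EV replicate 1, and that of miR-501-3p without either knockdown EV library.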

How the results depend on the processing

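The count of 193 called miRNAs in EVs was 121 at the thinned depth (192 tested), 119 with a filter worth 10 counts in the shallowest library (186 tested) and 121 to 161 with single libraries left out; fewer miRNAs were tested without a knockout EV library. It was 195 with RLE factors, 204 with total counts, 162 with DESeq2 (81 higher, 81 lower), 202 with the GC correction and 215 with no filter. In cells 281 to 382 were called with single libraries left out (367 with all), and 35.8% of calls were higher with total counts, against 47.1% with TMM factors. The interaction count of 206 was 105 at the thinned depth (204 tested) and 156 to 182 with single libraries left out, with 54.0% of calls higher with total counts and 52.3% with DESeq2, against 66.0% with TMM factors. With total counts the direction turned for miR-93-5p (−0.093), miR-30c-5p (−0.39, adjusted p = 0.0186) and miR-221-5p (−0.38, adjusted p = 0.0358), and at the thinned depth for the interaction of miR-501-3p (0.28); the cause was not tested. Same-numbered EV replicates did not deviate together (r = −0.058 over 369 miRNAs). With few counts in knockdown EVs and no word in the labels, that cannot show whether the numbers pair the samples. With a replicate block 183 were called in EVs, 335 in cells and 194 for the interaction, and 176 in EVs with the GC correction and the block. Depth limits the knockdown EVs most, where 3 counts come to 8.95 CPM over the group.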
